A study of Mus musculus with 24 samples.

Results

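The receptors and signalling Smads of the bone morphogenetic protein (BMP) pathway were followed in differentiating mouse embryonic stem cells with and without calcineurin inhibitors. The 10 genes were the type I receptors Bmpr1a, Bmpr1b and Acvr1, the type II receptors Bmpr2, Acvr2a and Acvr2b, the BMP Smads Smad1, Smad5 and Smad9, and the common Smad, Smad4. They were chosen by symbol from the 19938 genes with a probe set annotated to a single gene, and each of the 10 had exactly 1 such probe set.

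Expression was measured with 24 Affymetrix Mouse Gene ST microarrays on RNA from embryoid bodies (EBs), the aggregates that embryonic stem cells form when they differentiate without attachment. All EBs came from 46C, a single mouse embryonic stem cell line with a fluorescent reporter in the Sox1 locus, so the line's own peculiarities are shared by every group. Untreated EBs and EBs that received FK506 at 100 ng/ml together with cyclosporin A at 1 ug/ml were harvested on days 4, 6, 8 and 12, which gave 8 groups of 3 arrays, 1 array from each of 3 independent experiments. The drugs were present from day 3 to day 8, so that the day 12 EBs had been without them since day 8; untreated groups carried neither drug, and since both drugs were always given together, their effects cannot be told apart. All cultures started with LIF on gelatin, were moved into low attachment dishes on day 3, were plated on day 7 and changed to a serum-free medium on day 8. The step from day 6 to day 8 thus spans the plating. That from day 8 to day 12 spans the medium change and, in treated EBs, the removal of the drugs. Effects of these changes and of time cannot be told apart. The series title places calcineurin, the phosphatase that both drugs block, and the BMP pathway in the context of neural induction.

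A BMP dimer brings together type I and type II receptors, both of which are serine/threonine kinases. The type II receptor phosphorylates the type I receptor, which in turn phosphorylates Smad1, Smad5 and Smad9; these bind Smad4, enter the nucleus and act on targets such as the Id genes and the inhibitory Smads. Acvr2a and Acvr2b also serve activins, and Smad4 is shared with the activin and TGF-beta branch. In the early embryo BMP signalling favours mesoderm and epidermis, and its inhibition permits neural induction. The arrays measure RNA, not receptor protein, phosphorylation or nuclear entry of Smads.

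The promoters of the 4 genes that passed the test between treated and untreated EBs are shown here as the 250 bases upstream of the annotated start, taken from RefSeq on GRCm38.p6 and written from 5′ to 3′ on the gene's strand. Capitals mark matches to GGCGCC, a GC-rich Smad element that reads the same on both strands, or to GGAAA, the core bound by NFAT factors, which reads TTTCC on the other strand.
Smad1, chr8:79399429-79399678, strand -: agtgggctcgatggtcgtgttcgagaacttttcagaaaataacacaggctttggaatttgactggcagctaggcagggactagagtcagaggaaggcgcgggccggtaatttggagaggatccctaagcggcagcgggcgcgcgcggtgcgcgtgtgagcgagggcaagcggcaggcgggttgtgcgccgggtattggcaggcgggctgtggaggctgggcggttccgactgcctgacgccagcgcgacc
Acvr1, chr2:58566829-58567078, strand -: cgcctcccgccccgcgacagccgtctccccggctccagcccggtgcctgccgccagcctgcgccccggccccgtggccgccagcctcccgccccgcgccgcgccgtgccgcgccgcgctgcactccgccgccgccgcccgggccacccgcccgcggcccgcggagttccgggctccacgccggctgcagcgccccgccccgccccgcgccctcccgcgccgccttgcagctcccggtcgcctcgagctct
Bmpr2, chr1:59764029-59764278, strand +: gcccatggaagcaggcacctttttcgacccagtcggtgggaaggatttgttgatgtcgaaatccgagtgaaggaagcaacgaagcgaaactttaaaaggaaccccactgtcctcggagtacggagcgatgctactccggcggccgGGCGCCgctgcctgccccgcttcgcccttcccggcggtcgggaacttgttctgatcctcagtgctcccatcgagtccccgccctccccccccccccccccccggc
Acvr2b, chr9:119401928-119402177, strand +: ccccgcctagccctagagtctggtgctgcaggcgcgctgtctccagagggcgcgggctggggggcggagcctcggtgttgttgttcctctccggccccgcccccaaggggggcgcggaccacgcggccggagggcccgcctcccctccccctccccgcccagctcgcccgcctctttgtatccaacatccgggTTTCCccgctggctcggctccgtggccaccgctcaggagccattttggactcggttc

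The Smad1 and Acvr1 windows held neither motif, the Bmpr2 window held 1 GGCGCC, and the Acvr2b window held 1 GGAAA on the opposite strand. Among all 32851 RefSeq windows of that length, 9.59% held GGCGCC and 55.6% held GGAAA. The 4 windows were rich in G and C, at 63.6% for Smad1, 85.6% for Acvr1, 64% for Bmpr2 and 72.8% for Acvr2b, against a median of 52.4% over all windows. Of the 10 genes, 9 were matched to 13 windows, and Smad4 was not used here. GGCGCC was also present in windows of Bmpr1a, Smad5 and Smad9, and GGAAA in windows of Bmpr1b. A match is only a run of letters, and no binding was measured.

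Values are log2 signals as the authors deposited them, differences are differences of log2 group means with their standard error (SE), and group values are mean ± SD (n = 3 arrays). Rose and fell are used where limma's moderated test gave an adjusted p under 0.05 over all 19938 genes. The arrays had medians between 7.80 and 7.88, and treatment differences had a median SE of 0.09; the number of arrays limits the precision. EBs are mixtures of cells, and fewer cells of a type and less RNA per cell cannot be told apart. The labelled differentiation was visible in fixed marker lists, which were chosen with earlier results of these data known. In untreated arrays the mean level of 8 pluripotent and epiblast genes lay between 11.80 and 11.96 on day 4 and between 8.56 and 8.94 on day 12. That of 6 mesenchyme genes lay between 7.65 and 7.77 on day 4 and between 11.37 and 11.91 on day 12. Replicate 2 of the treated day 8 group stood apart, with a mesenchyme level of 9.28 against 11.16 and 10.56 in replicates 1 and 3, and a pluripotent level of 11.08 against 9.60 and 10.19. Untreated replicate 2 of that day was likewise the lowest of its group for mesenchyme, at 8.36 against 9.39 and 8.70. For the 10 genes and the lists of pathway genes, day 8 results are therefore also given without both of these arrays. This alternative was chosen after the data were seen. Counts of called marker genes were not repeated under any alternative.

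Over the untreated course, all 10 genes rose from day 4 to day 12, by 0.62 to 1.28, where 27% of all genes rose and 30.2% fell. The median of the 10 differences was 0.71, against -0.06 over all genes. The largest rises were those of Bmpr2 (1.28, SE 0.08), Acvr2a (1.20, SE 0.11) and Smad5 (1.18, SE 0.08), which correspond to 2.44-fold, 2.30-fold and 2.27-fold. Most of the gain fell into 2 steps. Between days 4 and 6, 8 of the 10 genes rose and Smad9 fell (21.1% and 20.9% of all genes), between days 6 and 8 Bmpr2 and Smad9 alone of the 10 rose and none fell (17.8% and 18.3%), and between days 8 and 12 another 8 rose and Smad1 fell (18.8% and 19.9%). Without untreated day 4 replicate 1 the fall of Smad9 no longer passed (adjusted p = 0.0619), and with quantile normalization the day 4 to day 6 rises of Acvr1 and Acvr2b did not pass (adjusted p = 0.102 and 0.0863) while Bmpr1a and Acvr2b did rise between days 6 and 8 (0.00752 and 0.0428). At the last step the rise of Acvr2b was lost without untreated day 8 replicate 1 (0.113) or untreated day 12 replicate 2 (0.0829), that of Acvr1 without untreated day 8 replicate 2 (0.0656) or untreated day 12 replicate 2 (0.0537), that of Smad9 without untreated day 8 replicate 2 (0.053), and that of Bmpr1a without both day 8 arrays numbered 2 (0.0502), all as adjusted p. The rises of Bmpr1a and Acvr2b at that step also did not pass with centring on the median (adjusted p = 0.11 and 0.059). In a fit of the compared groups alone they did not pass either (0.0523 and 0.0599).

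**Figure D1:**
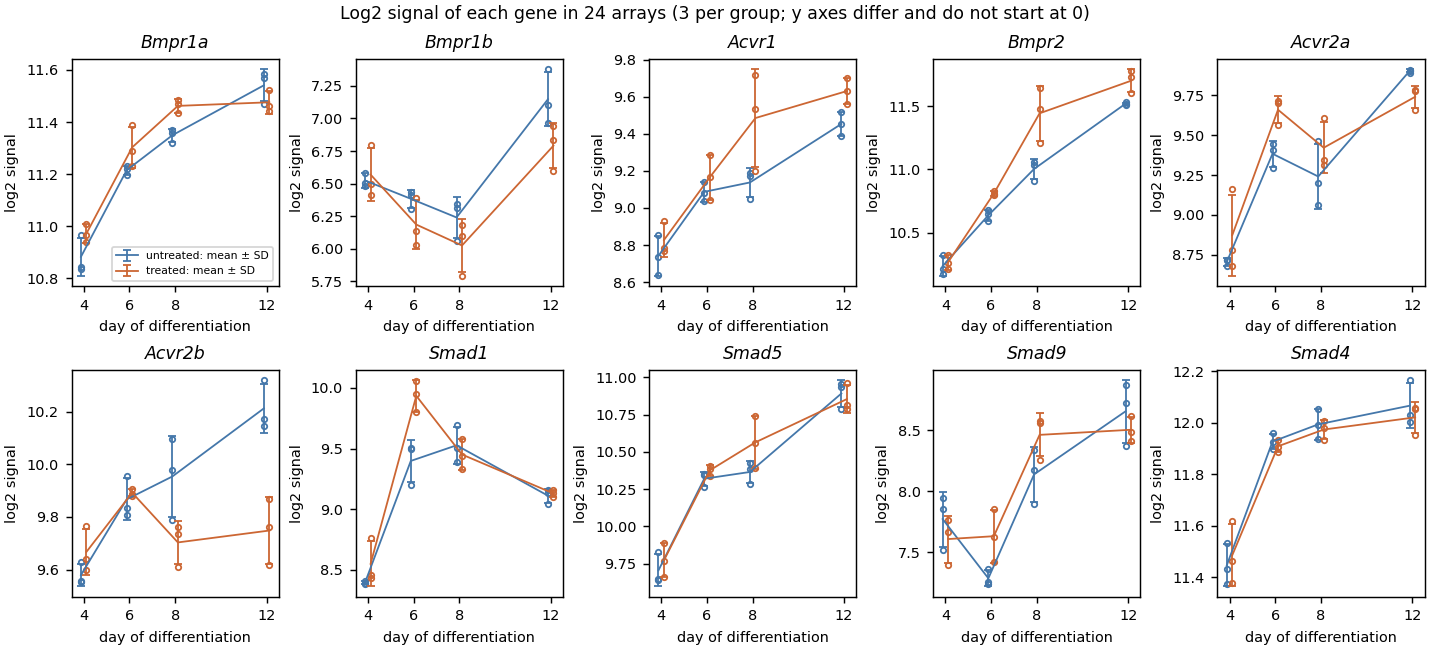
Log2 signal of the 10 genes (y axis, a different range in each panel, not starting at 0) against day of differentiation (x axis); open points are single arrays, lines join group means and bars are SD (n = 3), in blue for untreated and orange for treated EBs. Most genes climb in both courses, Smad1 peaks at day 6 in treated EBs at 9.93 ± 0.13, and Acvr2b climbs to 10.21 ± 0.09 in untreated EBs but stands at 9.75 ± 0.13 in treated EBs on day 12.

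Among the type I receptors, Bmpr1a, the main type I receptor for BMP2 and BMP4, had untreated levels of 10.88 ± 0.07, 11.22 ± 0.02, 11.35 ± 0.02 and 11.54 ± 0.06 on days 4, 6, 8 and 12. It rose by 0.33 to day 6 and by 0.19 after day 8, while its difference of 0.13 between days 6 and 8 did not pass (adjusted p = 0.0713). Its day 4 arrays read 10.84, 10.84 and 10.97 and its day 12 arrays 11.47, 11.57 and 11.58. No day 4 array reached the lowest day 6 array, at 11.20. Acvr1, the type I receptor mutated in fibrodysplasia ossificans progressiva and used by BMP6 and BMP7, went from 8.74 ± 0.11 to 9.09 ± 0.05 by day 6, stood at 9.14 ± 0.08 on day 8, and reached 9.45 ± 0.06 on day 12. Bmpr1b, known for its part in cartilage and neural tissue, had an untreated signal of 6.52 ± 0.05, 6.38 ± 0.07 and 6.24 ± 0.16 on days 4, 6 and 8, with neither step passing the test, and rose by 0.91 (SE 0.13, adjusted p = 5.51e-06) to 7.15 ± 0.21 on day 12. No detection calls came with the values, so the low signals of Bmpr1b, between 5.79 and 7.38 over the 24 arrays, were not shown to lie above background.

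Of the type II receptors, Bmpr2, which binds BMPs and not activins with high affinity, was the only one of the 10 genes called higher at every step of the untreated course. It rose by 0.40 to day 6 (SE 0.08, adjusted p = 0.00053), by 0.37 to day 8 (SE 0.08, adjusted p = 0.0017) and by 0.52 to day 12 (SE 0.08, adjusted p = 2.6e-05). Its 3 arrays read 10.17, 10.22 and 10.32 on day 4 and 11.52, 11.53 and 11.51 on day 12, and at each step every later array lay above every earlier one, as for 27.4%, 28.7% and 22.6% of all genes. Bmpr1a was also called at every step with the 40th percentile filter on mean level, quantile normalization, an intensity trend or array weights, with an adjusted p of 0.0495, 0.00752, 0.0493 and 0.0364 for days 6 to 8. Acvr2a rose by 0.68 to day 6, differed by -0.14 between days 6 and 8 (adjusted p = 0.303), and rose by 0.66 to day 12. Its untreated day 8 arrays were spread widely, at 9.20, 9.06 and 9.46, next to 9.91, 9.89 and 9.91 on day 12. Acvr2b rose by 0.29 to day 6 and by 0.63 in all, and ended at 10.21 ± 0.09.

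Of the BMP Smads in untreated EBs, Smad1 rose by 1.00 (SE 0.10, adjusted p = 1.5e-07) from day 4, when its arrays read 8.39, 8.39 and 8.41, to day 6, when they read 9.50, 9.20 and 9.49. It stood at 9.53 ± 0.15 on day 8 and then fell by 0.41 (SE 0.10, adjusted p = 0.00194) to 9.11 ± 0.06. It was highest in the middle of the course. Smad5 rose by 0.61 to day 6 and by 0.53 after day 8. Smad9 fell by 0.48 (SE 0.14, adjusted p = 0.00981) to 7.29 ± 0.07 on day 6. It rose by 0.85 (SE 0.14, adjusted p = 0.000147) to 8.14 ± 0.22 on day 8 and by 0.52 (SE 0.14, adjusted p = 0.00633) to 8.65 ± 0.26 on day 12. Its 3 arrays of day 6, at 7.36, 7.26 and 7.24, lay below every other untreated array. Smad4 rose by 0.48 (SE 0.07, adjusted p = 1.02e-05) between days 4 and 6 and by no more than 0.07 at each later step, neither of which passed.

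In treated EBs 8 genes rose and 1 fell between days 4 and 6 (19.1% and 25.1% of all genes), 4 rose and 1 fell between days 6 and 8 (16.8% and 24.7%), and 4 rose and 1 fell between days 8 and 12 (16.5% and 16.7%). Over the whole treated course 8 of the 10 rose and none fell (24.6% and 30.4% of all genes). The exceptions were Bmpr1b (0.22, adjusted p = 0.146) and Acvr2b (0.08, adjusted p = 0.422). Smad1 had the largest single step, a rise of 1.38 (SE 0.10, adjusted p = 1.64e-09) to day 6, or 2.61-fold. It then fell by 0.48 (SE 0.10, adjusted p = 0.000488) to day 8 and by 0.32 (SE 0.10, adjusted p = 0.0148) to day 12. Bmpr2 rose by 0.54, 0.63 and 0.26 over the 3 steps, and Smad9 rose by 0.83 between days 6 and 8 after a difference of 0.02 between days 4 and 6. Bmpr1b fell by 0.38 to day 6 and rose by 0.77 after day 8. Without the 2 day 8 arrays numbered 2, only Bmpr1b rose after day 8 and none fell: Smad1 then had an adjusted p of 0.095, Bmpr2 of 0.164, Acvr2a of 0.0756 and Smad5 of 0.0895. These 4 calls were likewise lost without treated day 8 replicate 2 alone (0.0856 to 0.17), and Bmpr1b alone kept its call with centring on the median among the genes that rose. Single arrays of day 12 also ended them, replicate 1 for Bmpr2 (0.0787), Acvr2a (0.075) and Smad5 (0.0635), replicate 2 for Acvr2a (0.0638) and replicate 3 for Bmpr2 (0.0568) and Smad1 (0.0514). Without day 8 replicate 3 the call on Acvr2a was lost (0.107). Several smaller steps were also lost without 1 array. The day 6 fall of Bmpr1b was lost without treated day 4 replicate 1 (adjusted p = 0.113), treated day 6 replicate 1 (0.0902) or replicate 3 (0.0586). The day 6 rise of Acvr2b was lost without any 1 of 5 of its 6 arrays (0.0578 to 0.0996; it passed without treated day 4 replicate 1). The day 8 rise of Acvr1 was lost without treated day 6 replicate 2 (0.0642) or day 8 replicate 1 (0.111), and that of Bmpr1a without 4 of its 6 arrays (0.0736 to 0.132).

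**Figure D2:**
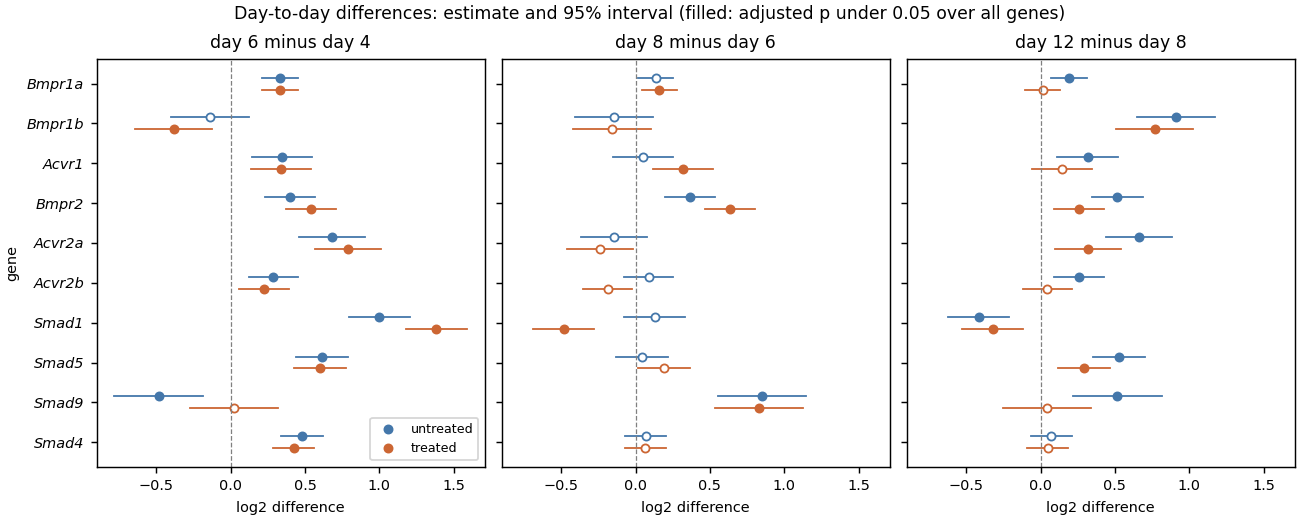
Differences in log2 signal between neighbouring days (x axis) for each gene (y axis) in untreated (blue) and treated (orange) EBs; points are estimates, bars 95% intervals, and filled points passed an adjusted p of 0.05. Smad1 is far to the right at the first step (1.00 untreated, 1.38 treated) and to the left of 0 at the last, and Smad9 is to the right at the middle step in both courses (0.85 and 0.83).

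Treated and untreated EBs were then compared on each day, to ask how the receptors and Smads stood while the drugs were present and after their removal. On day 4, after 1 day of drug, none of the 10 genes passed limma's test and none had an unadjusted p under 0.05; 1 of the 19938 genes, or 0.00502%, was called. On day 6 Smad1 rose in treated EBs and none of the 10 fell (1.26% of all genes rose and 0.577% fell). On day 8 Acvr1 and Bmpr2 rose and none fell (4.86% and 4.08%), and on day 12 Acvr2b fell and none rose (10.4% and 7.49%). An unadjusted p under 0.05 by limma was found for 4, 5 and 3 of the 10 on days 6, 8 and 12. The share of all genes with such a p was not counted in this fit. The median difference over the 10 genes was 0.08, 0.08, 0.15 and -0.06 on the 4 days, next to 0.03, 0.00, -0.04 and 0.02 over all genes. The shares over all genes moved with the arrays used: on day 8 the 968 higher and 813 lower genes became 201 and 133 when treated replicate 1 was left out but 1769 and 1898 with replicate 2 dropped instead, and on day 6 the 251 and 115 became 79 and 19 without untreated replicate 2. Counts of 1 or 2 in 10 are too small to set against these shares. The same shares stand beside the counts of marker and pathway lists below, day by day. On day 4 the treated arrays of 1 gene, Smad1, all lay above the untreated ones (8.19% of all genes). On day 6 this held for 4 of the 10 (12.1%), on day 8 for 3, with 1 below (9.37% and 14.2%), and on day 12 for 2, with 3 below (15.4% and 17.1%).

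**Figure D3:**
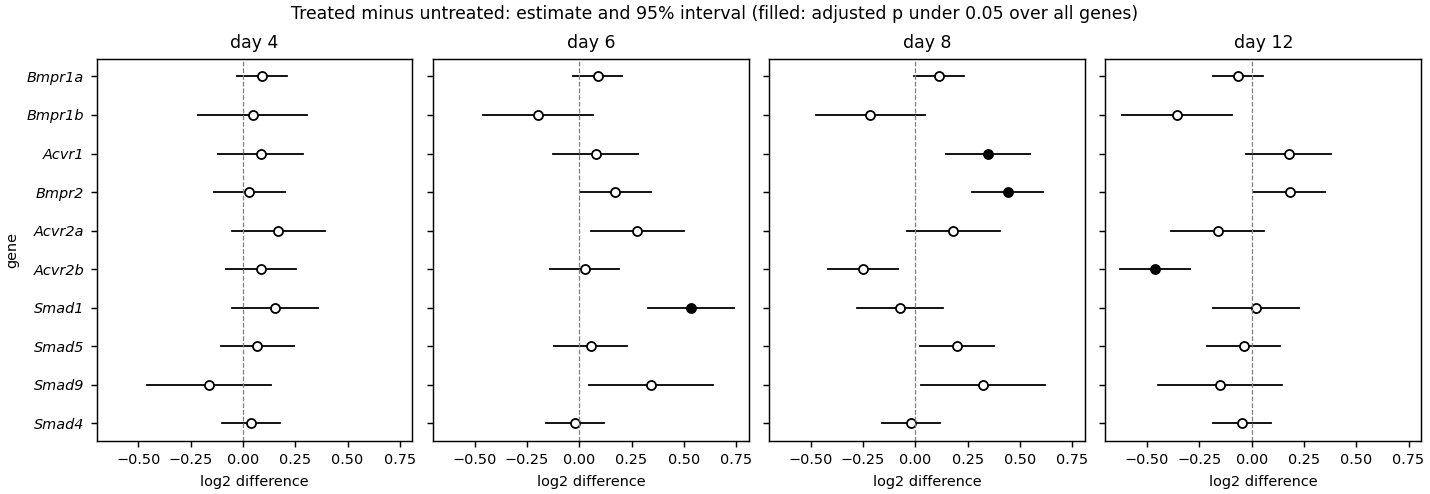
Treated minus untreated difference in log2 signal (x axis) for each gene (y axis) on days 4, 6, 8 and 12, with 95% intervals; filled points passed an adjusted p of 0.05 over all genes. The filled points are Smad1 on day 6 (0.54), Acvr1 and Bmpr2 on day 8 (0.35 and 0.44) and Acvr2b on day 12 (-0.46), and Smad4 stays close to 0 on every day.

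Smad1 was the only one of the 10 genes that passed on day 6. Bmpr2, Acvr2a and Smad9 also had all treated arrays above all untreated ones and 95% intervals above 0, without passing. The treated Smad1 arrays read 10.06, 9.80 and 9.95 and the untreated ones 9.50, 9.20 and 9.49, and the groups did not overlap. The difference was 0.54 (SE 0.10, 95% interval 0.33 to 0.74, 1.45-fold, adjusted p = 0.00446). Among the 8 groups treated day 6 had the highest Smad1 level, 0.41 above the next, untreated day 8 (95% interval 0.20 to 0.61). Without untreated day 6 replicate 2, which was the lowest of its group, the adjusted p was 0.0596. On day 8 the groups overlapped, with 9.33, 9.58 and 9.44 in treated and 9.39, 9.50 and 9.69 in untreated EBs, and on day 12 they differed by 0.02 (95% interval -0.19 to 0.22). The treatment difference of Smad1 was smaller by 0.52 on day 12 than on day 6 (SE 0.14, adjusted p = 0.0217), a change called lower for 5.88% of all genes and higher for 3.83%. This change did not pass without untreated day 6 replicate 2 (adjusted p = 0.0729), treated day 6 replicate 1 (0.0577), untreated day 12 replicate 2 (0.0514) or treated day 12 replicate 3 (0.0553). The change from day 6 to day 8 was -0.61 (SE 0.14, adjusted p = 0.0519), and 0.181% of all genes were called lower and 0.221% higher there. With the replicate number as a block within each day, which takes same-numbered arrays as pairs, this change passed (adjusted p = 0.00754).

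Primitive streak and mesoderm markers moved with treatment on the same day: 5 of 8 rose, among them Foxf1 (2.69, SE 0.27), Hand1 (2.15, SE 0.30) and Kdr (1.82, SE 0.28), and the mean level of the list lay between 10.52 and 11.05 in treated arrays and between 8.86 and 9.69 in untreated ones. Untreated day 6 replicate 2, the array on which the Smad1 call turned, also had the lowest mesoderm level. Endoderm list levels were 8.66 to 8.79 in treated and 8.04 to 8.65 in untreated arrays, with the same array lowest. Endothelium and blood levels were lower in treated arrays, at 7.08 to 7.15 against 7.32 to 7.34. The part of these lists in the Smad1 difference was not tested.

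Smad9 on day 6 read 7.85, 7.42 and 7.62 in treated and 7.36, 7.26 and 7.24 in untreated EBs. The groups did not overlap, but the difference of 0.34 (SE 0.14) had an adjusted p of 0.298, and that of 0.32 on day 8 one of 0.165. Smad5 differed by 0.20 on day 8 (SE 0.08, adjusted p = 0.148), where its arrays read 10.74, 10.39 and 10.56 in treated and 10.39, 10.28 and 10.43 in untreated EBs. It passed without treated replicate 2 (adjusted p = 0.0228) and with array weights (0.0322), but not without both arrays numbered 2. On the other days the Smad5 difference lay between -0.04 and 0.07.

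Smad4 showed the tightest bounds. Its treatment differences were 0.04, -0.02, -0.02 and -0.05 on the 4 days, and their 95% intervals all lay between -0.18 and 0.18, which leaves room for a difference of up to 1.14-fold. The arrays overlapped on every day; on day 8, for example, they read 11.98, 11.94 and 12.01 in treated and 11.99, 11.94 and 12.06 in untreated EBs. Bmpr1a was bounded almost as closely, with all intervals between -0.18 and 0.23, or up to 1.17-fold.

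Acvr1 rose by 0.35 on day 8 (SE 0.10, 95% interval 0.15 to 0.55, 1.27-fold, adjusted p = 0.029). Treated arrays read 9.72, 9.20 and 9.53 and untreated ones 9.19, 9.05 and 9.17. The groups did not overlap, but treated replicate 2 lay only just above the highest untreated array. The treated arrays had an SD of 0.26, against 0.12 for the spread pooled over the 8 groups, on which the SE rests. Without both arrays numbered 2 the difference was 0.45 (adjusted p = 0.00378). The call was lost without untreated day 8 replicate 2 (adjusted p = 0.161) or replicate 3 (0.0543), without treated replicate 1 (0.26) or replicate 3 (0.117), and in a fit of the day 8 arrays alone (0.208). On day 12 the arrays read 9.70, 9.56 and 9.63 in treated and 9.45, 9.52 and 9.39 in untreated EBs, which again did not overlap, with a difference of 0.18 (SE 0.10, adjusted p = 0.236).

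Bmpr2 rose by 0.44 on day 8 (SE 0.08, 95% interval 0.27 to 0.61, 1.36-fold, adjusted p = 0.00242). Treated arrays read 11.64, 11.21 and 11.47 and untreated ones 11.06, 10.91 and 11.04, so every treated array lay above every untreated one. Treated replicate 2 was again the lowest of its group and untreated replicate 2 the lowest of the other; without both the difference was 0.51 (adjusted p = 0.000255). A fit of the day 8 arrays alone did not call it (adjusted p = 0.146). The treated day 8 arrays had an SD of 0.22, against 0.10 for the spread pooled over the 8 groups, on which the SE rests. The treated Bmpr2 arrays also lay above all untreated ones on day 6, at 10.80, 10.83 and 10.80 against 10.59, 10.65 and 10.68, and on day 12, at 11.77, 11.60 and 11.73 against 11.52, 11.53 and 11.51. These differences, 0.17 (SE 0.08, adjusted p = 0.393) and 0.18 (SE 0.08, adjusted p = 0.135), did not pass. In the order of group levels the Bmpr2 mean of treated day 8 lay next to that of untreated day 12, and this step of 0.08 was within the spread (95% interval -0.09 to 0.24), whereas treated day 8 stood clear of untreated day 8.

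Markers of mesenchyme, endothelium and blood, pluripotent cells and neural cells moved with treatment on day 8. Of 6 mesenchyme genes 5 rose, led by Postn (2.96, SE 0.50) and Lum (2.20, SE 0.49), and the list's mean level was 9.28 to 11.16 in treated and 8.36 to 9.39 in untreated arrays. Of 6 endothelium and blood genes 3 rose, with list levels of 9.17 to 10.60 against 8.27 to 10.13, while 4 of 8 pluripotent and epiblast genes fell, with list levels of 9.60 to 11.08 against 10.87 to 11.24. Of 6 neural genes 4 fell, with list levels of 8.39 to 8.54 in treated arrays, all below the untreated ones (lowest 8.71, median 8.83). Within the treated group the array with the lowest mesenchyme level, replicate 2, was also lowest for Acvr1, Bmpr2 and Smad5, and replicate 1 was highest for all of them. Replicate 2 was lowest for Bmpr1a, Smad9 and Smad4 as well. It was highest for Smad1 (9.58), Acvr2b (9.76) and Bmpr1b (6.18), and for Acvr2a replicate 3 was lowest (9.31). The part of these lists in the Acvr1 and Bmpr2 differences was not tested.

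**Figure D4:**
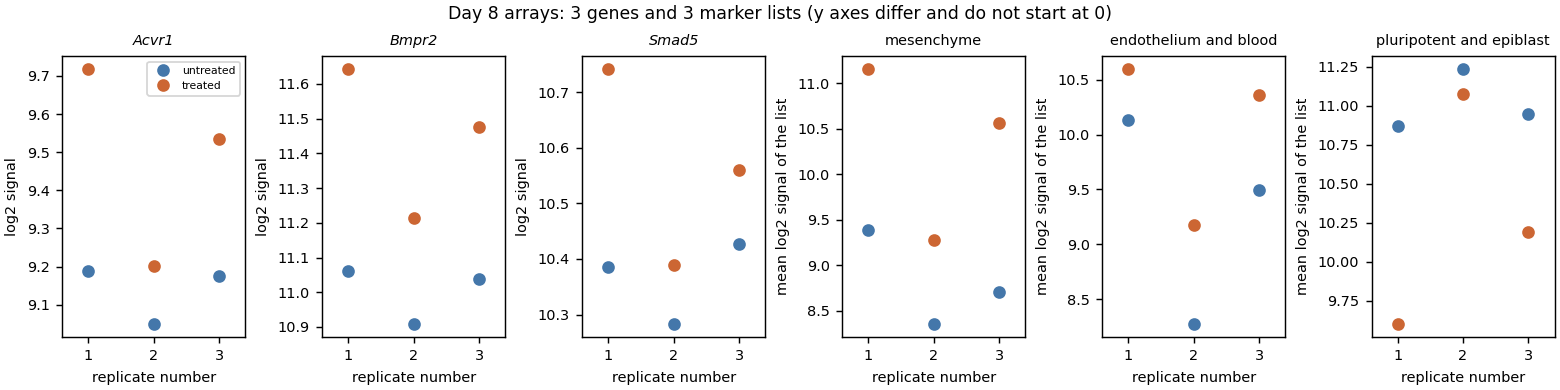
Log2 signal of Acvr1, Bmpr2 and Smad5 and mean log2 signal of 3 marker lists (y axes, each with its own range, not starting at 0) in the 6 day 8 arrays by replicate number (x axis), blue for untreated and orange for treated EBs. Treated replicate 2 is the lowest treated array for the 3 genes (9.20, 11.21 and 10.39), for mesenchyme (9.28) and for endothelium and blood (9.17), and the highest for the pluripotent list (11.08). It is the highest treated array for Smad1, Acvr2b and Bmpr1b, which are not shown.

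Acvr2b, a receptor for activins as well as for some BMPs, was the only one of the 10 genes to fall with treatment. On day 12 its treated arrays read 9.76, 9.87 and 9.62 and its untreated ones 10.14, 10.32 and 10.17, with no overlap. The difference was -0.46 (SE 0.08, 95% interval -0.63 to -0.30, 1.38-fold lower, adjusted p = 0.000314), and it passed under each of the 15 alternatives. On day 8 the arrays read 9.61, 9.76 and 9.74 in treated and 9.79, 9.98 and 10.10 in untreated EBs. That difference of -0.25 (SE 0.08) had an adjusted p of 0.0542, just outside the threshold. The adjusted p was 0.0237 with the replicate number as a block within each day and 0.0134 without untreated replicate 1. It was 0.0338 without treated replicate 2, and 0.0998 without both arrays numbered 2. On days 4 and 6 the groups overlapped, with differences of 0.09 and 0.03. The treatment difference on day 12 was lower than that on day 6 by 0.49 (SE 0.11, adjusted p = 0.00873), and this passed under each of 20 alternatives.

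The other type II receptor shared with activins, Acvr2a, read 9.70, 9.56 and 9.72 in treated and 9.29, 9.41 and 9.45 in untreated EBs on day 6, all treated above all untreated. On day 12 the order was turned, with 9.78, 9.78 and 9.66 against 9.91, 9.89 and 9.91. Neither the first difference (0.28, SE 0.11, adjusted p = 0.252) nor the second (-0.16, SE 0.11, adjusted p = 0.334) passed, and the change between them was -0.44 (SE 0.15, adjusted p = 0.0682). Bmpr1b on day 12 read 6.84, 6.94 and 6.60 in treated and 6.97, 7.10 and 7.38 in untreated EBs, all treated below all untreated. Its difference of -0.36 (SE 0.13) had an adjusted p of 0.0537, and it passed without untreated day 12 replicate 1 (0.0309) or treated day 12 replicate 2 (0.0301).

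On day 12 the 6 neural markers all fell in treated EBs, by 0.32 for Sox1 to 1.39 for Map2. The list's mean level was 8.81 to 9.27 in treated and 9.77 to 10.11 in untreated arrays, and its share in the Acvr2b difference was not tested. On the same day 3 of 6 mesenchyme genes rose (list levels 12.40 to 12.84 against 11.37 to 11.91), 4 of 6 endoderm genes rose and 1 fell (10.09 to 10.24 against 9.42 to 9.70), and 4 of 8 pluripotent genes rose and Sox2 fell. Of 8 primitive streak and mesoderm genes 3 rose, and the list levels of 9.35 to 9.58 in treated arrays lay above the 8.81 to 9.08 of untreated ones.

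Upstream of the receptors, 3 of 12 BMP ligand genes rose with treatment on day 6 and none fell, namely Bmp4 (1.20, SE 0.16, adjusted p = 0.000216), Bmp5 (1.74, SE 0.27, adjusted p = 0.00112) and Bmp6 (0.33, SE 0.07, adjusted p = 0.0166). On that day 1.26% of all genes rose and 0.577% fell, and the list's median difference was 0.10, against 0.00 over all genes. Bmp4, the main BMP of early mesoderm, went from 10.30 to 11.50 in mean level on that day, and differed by 0.07, 0.30 and 0.28 on days 4, 8 and 12 without passing. On day 8 Bmp8b alone of the ligands fell (-0.50), and on day 12 Gdf6 alone rose (0.54). The 12 secreted antagonists and modulators analysed here had 1 gene higher on day 6, Bmper (1.25). On day 8 Cer1 (-2.45, SE 0.41), Nog (-0.44, SE 0.09) and Chrd (-0.45, SE 0.12), which bind BMPs outside the cell, fell and Fstl1 rose (0.41), with a list median of -0.25 against -0.04. On day 12 Nog (-0.36) and Sostdc1 (-0.74) fell. The day 8 count of lower antagonists was 1 without treated replicate 1 and 6 without treated replicate 2, and on day 12 it was 1 without untreated replicate 1 or treated replicate 1.

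Downstream, the 7 inhibitory Smad, Bambi and Id genes had a median difference of 0.64 on day 6, against 0.00 over all genes. Of these, 4 rose and none fell, next to 1.26% and 0.577% of all genes. They were Smad6 (1.16, SE 0.19, adjusted p = 0.00187), which competes with Smad1 and its partners, the pseudoreceptor Bambi (1.01, SE 0.19, adjusted p = 0.0047), Id1 (0.72, SE 0.17, adjusted p = 0.0259) and Id2 (0.64, SE 0.13, adjusted p = 0.0116). Smad7 differed by 0.41 (adjusted p = 0.062), Id3 by 0.36 (adjusted p = 0.301) and Id4 by -0.08. On day 8 Smad6 (0.81), Smad7 (0.51) and Bambi (0.74) rose, while Id1 to Id4 differed by 0.09, 0.31, 0.08 and -0.01 without passing. By day 12 Bambi (0.95) and Smad7 (0.36) were higher and Id3 (-0.50) and Id4 (-0.75) lower, and the list's median was -0.10 against 0.02. The day 6 count was 1 without untreated day 6 replicate 2 or treated day 6 replicate 1 and 2 without treated day 6 replicate 3, and the day 8 count was 0 without untreated day 8 replicate 2 and 1 without treated day 8 replicate 1 or 3. On day 12 each of the 2 counts was 1 without 4 of the 6 arrays in turn. None of these 7 genes passed on day 4, when they differed by 0.02 to 0.22.

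Of 6 other TGF-beta family receptors none passed on days 4 and 6. On day 8 Acvr1b (0.32), a type I activin receptor, and Acvrl1 (0.26), an endothelial type I receptor, rose, and on day 12 Tgfbr2 (0.68) rose. The co-receptor list of 6 genes split on days 8 and 12: Tgfbr3 (0.61, then 0.87) and the endothelial glycoprotein Eng (0.56 on both days) rose, while the repulsive guidance molecules, BMP co-receptors of neural tissue, fell, Rgma on both days (-0.49, then -1.08) and Rgmb on day 12 (-0.67). Smad2 of the activin branch rose on day 8 (0.29, SE 0.08) and Smad3 did not pass on any day. Among 13 ubiquitin ligases, phosphatases and nuclear partners of Smads, 3 rose on day 8 (Smurf1, 0.39; Ctdspl, 0.37; Lemd3, 0.29), and on day 12 Ctdsp2 (0.29) rose and Nedd4l (-0.54) and Zfp423 (-0.30) fell. Of 8 partners of the receptor kinases, Zfyve16 rose on day 8 (0.43) and Zfyve9 fell on day 12 (-0.38). On day 8 no gene of the ligands, co-receptors, other receptors, Smad2 and Smad3, kinase partners or the ligase, phosphatase and partner list passed in the direction named without untreated replicate 2, treated replicate 1 or treated replicate 3, each left out singly, and on day 12 the single calls of Gdf6, Ctdsp2 and Zfyve9 were each lost without at least 2 of the 6 arrays in turn. Without both day 8 arrays numbered 2, the day 8 counts of higher and lower genes were 2 and 0 for the inhibitory Smad, Bambi and Id list, 1 and 4 for the antagonists, 0 and 2 for the ligands, 1 and 1 for the other receptors, 2 and 2 for the co-receptors, 2 and 0 for Smad2 and Smad3, 3 and 1 for the Smad ligases, phosphatases and partners, and 2 and 0 for the kinase partners. Fkbp1a, which encodes the FK506-binding protein that also sits on type I receptors, was singled out with its values known and differed by -0.08, -0.05, 0.01 and 0.04 (SE 0.07) on the 4 days, none of which passed.

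Across all 24 arrays, the 45 pairs of the 10 genes had Pearson correlations of log2 signal between -0.40 and 0.96, with a median of 0.64; the arrays share days and experiments, so these are descriptions. The genes whose patterns were most like those of the 4 genes with a treatment call were, by that correlation, Lrp1, Chst14 and Aph1a for Acvr1 (each 0.98), Fndc3b, Zmiz1 and Nynrin for Bmpr2 (each 0.99), Usp6nl, B4galnt4 and Med1 for Acvr2b (0.94, 0.93 and 0.93), and Tmem185a, Rspo3 and Prkd1 for Smad1 (0.97, 0.96 and 0.96).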

How the data were processed

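The authors' values are log2 signals, as judged from their range (3.32 to 14.5), for 35556 probe sets, deposited after RMA in the Affymetrix Expression Console per the submitters' processing notes. Software versions are not given in the sources named here, nor is a genome build. Probe sets were named from the platform annotation (21789 with 1 symbol, 1621 with several, 12146 not listed), and the highest-mean single-symbol probe set stood for each of 19938 genes.

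The test was that of limma 3.58.1 (R 4.3.3): lmFit with 8 group means over 24 arrays left 16 residual degrees of freedom, and p-values moderated by eBayes were adjusted (Benjamini-Hochberg) over all genes of a contrast, with a threshold of 0.05. Day 4 to day 12 contrasts share arrays with the steps between days. The script was tested on simulated data. Python 3.11.15 with pandas 2.3.3 read the promoters, and matplotlib 3.10.9 drew the plots.

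The genes and lists were chosen with earlier results of these data known. Named were the 10 genes, up to 4 called genes of each pathway list with the smallest adjusted p per treatment contrast, Smad6, Smad7, Bambi, Id1 to Id4 and Bmp4 throughout, and the 3 genes most correlated with each of the 10 that had a treatment call, passing over clone-named, predicted and small RNA models; markers were named from fixed lists. Same-numbered arrays deviated together (correlation above 0.1 for every number) on day 6 (0.30, 0.14 and 0.21), day 8 (0.48, 0.55 and 0.11) and day 12 (0.12, 0.34 and 0.25), not on day 4 (-0.01, 0.19 and -0.05). Of differently numbered arrays, untreated replicate 1 and treated replicate 3 also exceeded 0.1 on day 4 (0.11), day 8 (0.13) and day 12 (0.26). The fit takes no arrays as pairs, and a block by number was an alternative; the labels give 3 independent experiments. Alternatives were the replicate number as a block, array weights, a robust prior with intensity trend, quantile normalization, centred arrays, probe set means, only genes above the 40th percentile of mean level, the compared groups alone and leaving out arrays.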

Additional observations from a re-analysis of the deposited data

Results flagged for a closer look

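For 2 of the 10 genes the difference between treated and untreated EBs was itself different between days. The treatment difference of Acvr2b was -0.46 on day 12 and 0.03 on day 6, a change of -0.49 (SE 0.11, adjusted p = 0.00873 by limma's interaction contrast), with all treated arrays below all untreated ones on day 12 and overlap on day 6. That of Smad1 was 0.02 on day 12 and 0.54 on day 6, a change of -0.52 (SE 0.14, adjusted p = 0.0217), with all treated arrays above all untreated ones on day 6 and overlap on day 12. The change of Smad1 did not pass in 4 of 20 alternatives, each of which left out 1 array (limma adjusted p up to 0.0729). That of Acvr2b passed in all 20. Over all genes 5.88% were called lower and 3.83% higher by this test.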

How the results depend on the processing

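Of the differences of single genes under the alternatives, 2457 stayed on their side of the threshold, 63 no longer passed, 54 newly passed and 0 called ones changed sign. Bmpr1b has no value with the 40th percentile filter, and since each gene has 1 probe set, probe set means changed nothing among the 10 and other probe sets of a gene could not be tried. Values below are numbers of the 10 genes called, and only the larger shifts are listed. The filter gave 1 lower on day 8, and in treated EBs 0 lower from day 4 to 6 and 2 lower from day 6 to 8. Quantile normalization gave 1 lower on day 8 and 4 higher in untreated EBs from day 6 to 8, and centring gave 1 higher in treated EBs from day 8 to 12. Smaller shifts included the rises of Acvr1 and Acvr2b in treated EBs from day 4 to 6, lost with quantile normalization (adjusted p = 0.0872 and 0.242). Those of Bmpr1a and Acvr2b in untreated EBs from day 8 to 12 were lost with centring and in the compared groups alone. The intensity trend gave 2 lower on day 12. Array weights gave 2 higher on day 6, 4 higher and 2 lower on day 8, 1 higher and 2 lower on day 12, 4 lower in treated EBs from day 6 to 8, and for the change of the treatment difference 1 higher from day 4 to 6, 1 higher and 1 lower from day 6 to 8, 2 lower from day 8 to 12 and 4 lower from day 6 to 12. The compared groups alone gave 0 higher on day 8, and 2 higher in treated EBs from day 6 to 8 and 2 from day 8 to 12. Without both day 8 arrays numbered 2, 1 gene was higher and 0 lower in treated EBs from day 8 to 12. The filter, quantile normalization and leaving out those arrays each gave 1 lower for the change from day 6 to 8. The cause of these shifts was not tested. Over all genes, the alternatives called 2278 to 4894 higher and 3925 to 5802 lower in treated EBs from day 6 to 8. From day 8 to 12 they called 2374 to 4245 higher and 2239 to 5261 lower. For the change of the treatment difference they called 6 to 710 higher and 3 to 680 lower from day 6 to 8. From day 6 to 12 these ranges were 472 to 1747 and 695 to 2220.

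With the replicate number as a block, over all arrays or within each day, 1 gene was lower on day 8 (Acvr2b, adjusted p = 0.0474 and 0.0237) and 1 lower for the change from day 6 to 8 (Smad1, 0.0421 and 0.00754); the block changed no other call among the 10 in these contrasts. Over all genes the block within days called 418 higher and 303 lower on day 6, against 251 and 115 without it, and 1436 lower on day 8, against 813. Array weights called 668 higher and 624 lower on day 6 and 2140 and 3018 on day 8; the weights' estimation stopped before it reached its tolerance. The day 8 groups alone gave 0 calls by limma, with 3969 genes at an unadjusted p under 0.05. Leaving out single arrays gave 79 to 246 higher and 19 to 129 lower on day 6, and 201 to 1769 higher and 133 to 1898 lower on day 8.

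Leaving out each array in turn gave, for treated against untreated, 0 to 1 higher on day 6, 1 to 3 higher and 0 to 1 lower on day 8 and 1 to 2 lower on day 12; for untreated EBs 0 to 1 lower from day 4 to 6; for treated EBs 0 to 1 lower from day 4 to 6, 2 to 5 higher and 1 to 2 lower from day 6 to 8, and 1 to 5 higher and 0 to 1 lower from day 8 to 12; and for the change of the treatment difference 0 to 2 higher and 0 to 1 lower from day 6 to 8, 0 to 1 lower from day 8 to 12 and 1 to 3 lower from day 6 to 12.

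The share of all called genes that were higher moved from 68.6% to 54.4% on day 6 with quantile normalization, from 54.4% to 72.3% on day 8 with centring, and from 41.9% to 51.4% on day 12 with centring. In untreated EBs centring moved it from 50.3% to 32.7% for day 4 to 6, from 48.6% to 31.3% for day 8 to 12 and from 47.3% to 29.4% for day 4 to 12, where the median of all genes went from -0.06 to -0.21. In treated EBs centring moved it from 43.2% to 32.4%, from 40.5% to 53.7% and from 49.6% to 31.1% over the 3 steps, and from 44.7% to 33.6% overall.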
